A study of Mus musculus with 5 samples.

Results

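Nodal is a secreted signal of the TGF-beta family that patterns the primitive streak and later marks the left side of the embryo. It binds activin receptors together with an EGF-CFC co-receptor (Tdgf1, also called Cripto, or Cfc1), and the signal reaches DNA through Smad proteins held on chromatin by the forkhead factor Foxh1. Its targets include the genes of its own inhibitors Lefty1, Lefty2 and Cer1, and genes of streak transcription factors such as Mixl1, Gsc and Lhx1. The loci of 9 such genes (Nodal, Lefty1, Lefty2, Tdgf1, Cer1, Foxh1, Gsc, Mixl1 and Lhx1) were examined for sites of Hand1, a bHLH factor, and Foxf1, a forkhead factor. The genes were chosen by name from 21887 protein-coding genes of the mouse table used here. A site belonged to a gene when the summit of a deposited peak lay in the gene or within 100 kb of either end.

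The peaks come from chromatin immunoprecipitation followed by sequencing with an anti-HA antibody in E14, a mouse embryonic stem cell line. Embryoid bodies were grown for 48 h and re-aggregated for 40 h with VEGF, BMP4 and Activin A, which gave the stage abbreviated MES. Activin A (10 ng/ml) acts through receptors that Nodal also uses. Further culture as a monolayer for 32 h with VEGF and FGFs gave the stage abbreviated CP. The Hand1 list came from 1 library of a Hand1-HA knock-in at MES, and the Foxf1 list belongs to replicate 1 of an inducible Foxf1-HA overexpression line at CP. Input libraries of each stage and a second Foxf1 library were not analysed here. The lists differ at once in factor, in stage and in how the tagged protein was expressed, and these cannot be told apart. There was 1 list per factor, no value has a replicate error, and no test was made. The lists held 1134 Hand1 and 5703 Foxf1 peaks, and the sequencing depth is not given in them.

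The 2 lists met the Nodal loci in different places. Hand1 had 3 sites near 2 of the 9 genes, Tdgf1 and Foxh1, and each lay within 3.18 kb of the gene. Foxf1 had 18 distinct sites near 7 genes (Nodal, Lefty1, Lefty2, Tdgf1, Foxh1, Gsc and Mixl1), at a median of 51.9 kb from the nearest of the genes. Only 1 of the 18, near Foxh1, lay within 10 kb. Cer1 and Lhx1 had no site in either list. Among all protein-coding genes, 9.90% had a Hand1 summit and 53.3% a Foxf1 summit within 100 kb, which would give 0.891 and 4.80 of 9 genes. A single gene is a large share of 9, and 3 of the genes neighbour each other, so the counts of 2 and 7 are read as a description beside these levels. No Hand1 site near the genes overlapped a Foxf1 site by 1 bp or more, so the overlap was 0 of 3 Hand1 and 0 of 18 Foxf1 sites. The share of overlapping peaks over the whole lists is not given here, so this is not read as a trait of these genes.

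**Figure D1:**
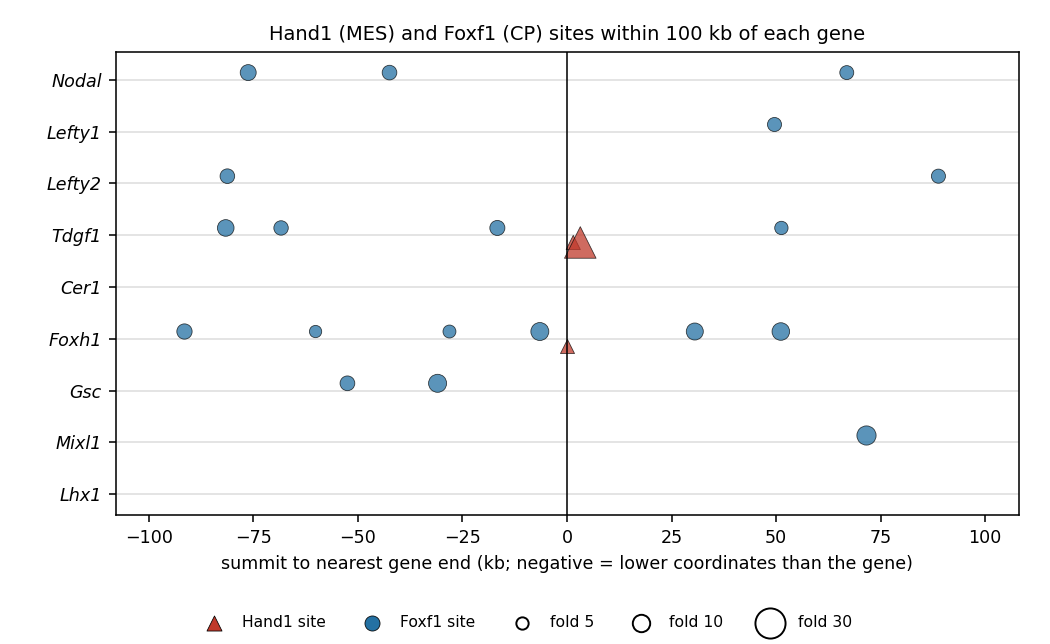
Position of each site (horizontal axis, kb from the nearest gene end, negative towards lower coordinates) at the 9 genes (rows); triangles are Hand1 sites at MES, circles Foxf1 sites at CP, and symbol area grows with the authors' fold enrichment. The 3 Hand1 sites sit within 3.18 kb of Tdgf1 and Foxh1, while the Foxf1 sites lie between 6.50 kb and 91.5 kb away.

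Tdgf1, the co-receptor gene, carried the strongest site of the set. Tdgf1 (gene 21667; chr9:110939608-110946158, GRCm38, minus strand) had 2 Hand1 sites, both before its start, where 2.40% of protein-coding genes had at least 2 within 100 kb. The site farther from the start, chr9:110948840-110949639, had a fold enrichment over the caller's background of 33.0 (the authors' value, as are all folds and q-values here) and a −log10 q-value of 102. Its summit lay 3.18 kb from the Tdgf1 start and was inferred to hold 80 fragments, against a control level of 1.46. By fold it ranked 7 of the 1134 Hand1 peaks, and by −log10 q-value 39. Of the peaks with a higher fold, 4 lay within 500 bp of a tRNA gene, and among the 854 Hand1 peaks farther than that from tRNA genes it ranked 3. The second Hand1 site, chr9:110947113-110948625, had a fold of 6.68 and 17 fragments, with its summit 1.50 kb from the start. The first site thus ranks near the top of the Hand1 list, and the second is below the list's median fold of 7.92.

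The Hand1 sites near Tdgf1 also lie near another gene. Lrrc2, a gene for a leucine-rich repeat protein, lies on the plus strand with 5386 bp between its start and that of Tdgf1, so the 2 genes run away from each other. The summit of the stronger site lay 2.21 kb from Lrrc2, nearer than to Tdgf1, and that of the weaker site lay nearer to Tdgf1. The positions alone do not assign the stronger site to either gene.

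The promoter of Tdgf1 is shown because the weaker Hand1 site begins 705 bp from it, the closest approach of any peak to a member's promoter among the 5 members with a promoter entry in the RefSeq table (GRCm38.p6). It gives the 250 bases before the start, chr9:110946159-110946408, read on the minus strand, and capitals mark the only match to the motifs searched.
Tdgf1 promoter: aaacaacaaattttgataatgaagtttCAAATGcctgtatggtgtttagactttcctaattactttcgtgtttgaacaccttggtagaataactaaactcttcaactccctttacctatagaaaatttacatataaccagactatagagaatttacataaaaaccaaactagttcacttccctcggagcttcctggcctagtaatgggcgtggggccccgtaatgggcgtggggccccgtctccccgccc
The match is an E-box (CANNTG), the kind of sequence bHLH factors bind, and begins 223 bases before the start. On both strands, 66.2% of the 32851 listed promoters hold an E-box in the same 250 bases. The Hand-type E-box (CATCTG, itself an E-box, in 14.4% of promoters), a forkhead motif (TGTTTAC, 3.17%), a FoxH1-type motif (TGTGGAT, 2.78%) and a SMAD motif (CAGACA, 17.1%) had no match in these bases. The sequence of the peaks themselves was not analysed here.

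In the longer Foxf1 list, sites near Tdgf1 were more numerous and farther away. There were 4, with summits 16.7 kb to 81.6 kb from the gene, folds of 5.90 to 9.16 and 21 to 26 fragments. As many or more Foxf1 sites were found at 9.78% of protein-coding genes. With the Foxf1 list cut to the length of the Hand1 list, by fold or by q-value, Tdgf1 had 0. The nearest, chr9:110922780-110923088 (fold 7.52), lay beyond the far end of Tdgf1 and nearer to Fam240a. The strongest, chr9:110857533-110858157 (fold 9.16), lay at the start of Prss50, a serine protease gene. The Hand1 and Foxf1 summits closest to each other at this locus were 24.7 kb apart. At Tdgf1 the Hand1 sites were therefore next to the gene start and none of the Foxf1 sites was.

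Foxh1, the forkhead partner of Smad2 and Smad3, was the other gene with sites in both lists. Such genes make up 7.65% of all protein-coding genes, and genes with a summit of each list within 10 kb, as Foxh1 had, 1.35%. Foxh1 (gene 14106; chr15:76667829-76671614) had 1 Hand1 site, chr15:76667597-76668233, with a fold of 6.56, a −log10 q-value of 7.96 and 17 fragments at the summit. The summit lay 83 bp outside one end of Foxh1 and inside Kifc2, a kinesin gene (chr15:76659784-76668196) that overlaps Foxh1 by 368 bp. The peak itself reached 405 bp into Foxh1. The table used here gives no strand for Foxh1, so which end this is cannot be stated from it.

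Foxh1 also had more Foxf1 sites than any other member, 6. At least 6 Foxf1 summits within 100 kb were found at 2.99% of protein-coding genes. The locus is crowded: 16 protein-coding genes reach into the Foxh1 window, where the median over all protein-coding genes is 5. The nearest Foxf1 site, chr15:76661138-76661578 (fold 10.7, 38 fragments), lay 6.50 kb from Foxh1 inside Kifc2, and its summit was 6.41 kb from the Hand1 summit. The other 5 sites had folds of 5.02 to 10.2. All 6 lay inside another protein-coding gene or within 32 bp of one (Kifc2, Tonsl, Mfsd3, C030006K11Rik, Cpsf1 and Adck5). Per protein-coding gene in the window this makes 0.375 Foxf1 sites at Foxh1, below Nodal (0.75), Gsc (0.667) and Tdgf1 (0.4). The values were 0.286 at Lefty2, 0.25 at Mixl1, 0.143 at Lefty1 and 0 at Cer1 and Lhx1.

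Nodal itself, the ligand gene (gene 18119; chr10:61417972-61425338, plus strand), had 3 Foxf1 sites and no Hand1 site. As many or more Foxf1 sites were found at 17.6% of protein-coding genes. The 2 sites before the Nodal start lay inside Pald1, a gene for a phosphatase-domain protein. They were chr10:61375293-61375832 (fold 7.12, 20 fragments), 42.5 kb from Nodal, and chr10:61341182-61342062 (fold 8.44, 28 fragments), 76.3 kb from it. The third, chr10:61491959-61492587 (fold 6.45, 29 fragments), lay 66.9 kb beyond the other end, inside Lrrc20. The nearest Hand1 peak was 602 kb from Nodal. All 3 Nodal sites were thus distal, with 1 fold above and 2 below the Foxf1 list's median of 7.62.

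Of the feedback inhibitor genes, Lefty1 and Lefty2 had a Foxf1 site and Cer1 had none, where 53.3% of protein-coding genes had such a site. At least 2, as at Lefty2, were found at 31.0%. Lefty1 and Lefty2 encode antagonists that block Nodal signalling, and both had Foxf1 sites only. Lefty2 (gene 320202; chr1:180893108-180899107) and Lefty1 (gene 13590; chr1:180935022-180938401) lie 35.9 kb apart, and Mixl1 lies 196 kb from Lefty2. One Foxf1 site, chr1:180987773-180988446 (fold 6.58, 28 fragments), counted for both Lefty genes, 49.6 kb from Lefty1 and 88.8 kb from Lefty2. It lay 1.60 kb from Ephx1, an epoxide hydrolase gene. Lefty2 had a second site inside the histone gene H3f3a, chr1:180811712-180812066 (fold 7.07, 25 fragments), 81.2 kb away. The same site lay outside the limit for Lefty1, at 123 kb, and for Mixl1, at 115 kb. Cer1, a secreted antagonist of Nodal and BMPs (gene 12622; chr4:82881751-82885151), had no site. Its nearest Hand1 peak, chr4:83048615-83048942 with a fold of 13.3, lay 164 kb away, and its nearest Foxf1 peak 1179 kb away.

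The 3 streak transcription factor genes likewise had no Hand1 site, where 9.90% of protein-coding genes had one. Mixl1, a homeobox gene of the streak (gene 27217; chr1:180693043-180697034), had 1 Foxf1 site, chr1:180767499-180769469, 71.6 kb away. With a fold of 12.2 and 35 fragments it had the highest fold of the 18 Foxf1 sites and ranked 428 of 5703 by fold. The site with the most fragments (55) and the highest −log10 q-value (35.8) was chr15:76722474-76722934 near Foxh1. The Mixl1 site lay beside the lncRNA gene Gm38293, and the protein-coding gene nearest to that site was Acbd3. Gsc, a homeobox gene of the organizer (gene 14836; chr12:104471209-104473236, minus strand), had 2 Foxf1 sites beyond its far end. The nearer, chr12:104440057-104440448 (fold 10.8, 36 fragments), was 31.0 kb away, and the other, chr12:104418514-104418902 (fold 7.21, 22 fragments), 52.5 kb away. Lhx1, a LIM homeobox gene of the organizer (gene 16869; chr11:84517975-84525534), had none, and its nearest Foxf1 and Hand1 peaks were 269 kb and 1103 kb away. Genes with no summit of either list within 100 kb, as Cer1 and Lhx1, make up 44.4% of all protein-coding genes.

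**Figure D2:**
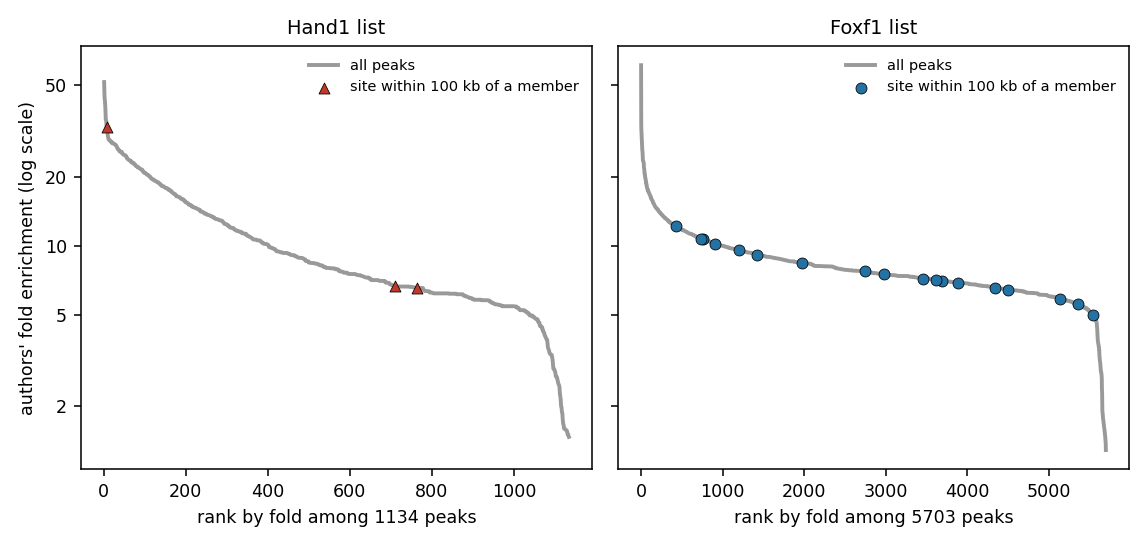
Authors' fold enrichment (vertical axis, log scale) against rank in each list; the grey line is every peak and the symbols are the sites within 100 kb of the 9 genes. The stronger Tdgf1 site stands at rank 7 of the Hand1 list, while the Foxf1 sites run from rank 428 to rank 5548.

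In strength, the Foxf1 sites near the 9 genes were spread through the list. Their median fold was 7.36 (range 5.02 to 12.2) against 7.62 for all 5703 peaks, and 8 of the 18 lay above that median. Their summits were inferred to hold a median of 28 fragments, against 29 in the whole list. None of the 18 had a high control level, meaning 5 or more times the lowest level of the list, where 3.65% of all Foxf1 peaks had one. The 3 Hand1 sites had no high control level either, against 11.7% of the Hand1 list. A summit inside a protein-coding gene was found for 10 of the 18 Foxf1 sites (55.6%) and for 49.4% of all Foxf1 peaks. In fold, fragments and gene overlap these sites were near the middle of the Foxf1 list.

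The count of genes depended on the distance allowed. Within 10 kb, Hand1 still had a site at 2 of the 9 genes, where 2.80% of protein-coding genes had one, and Foxf1 at 1 of 9, where 22.7% did. Within 50 kb the members with a site numbered 2 for Hand1 (6.06% of protein-coding genes) and 5 for Foxf1 (41.7%). Within 200 kb they numbered 3 for Hand1 (16.6%), with Cer1 added, and 7 for Foxf1 (65.9%). When a summit counted only for the nearest protein-coding gene, Hand1 kept 1 site, the weaker one at Tdgf1, and Foxf1 had 0 of 18. By that rule 2.94% of protein-coding genes had a Hand1 and 19.2% a Foxf1 site. Every one of the 18 Foxf1 sites therefore had another protein-coding gene closer to it than any of the 9.

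**Figure D3:**
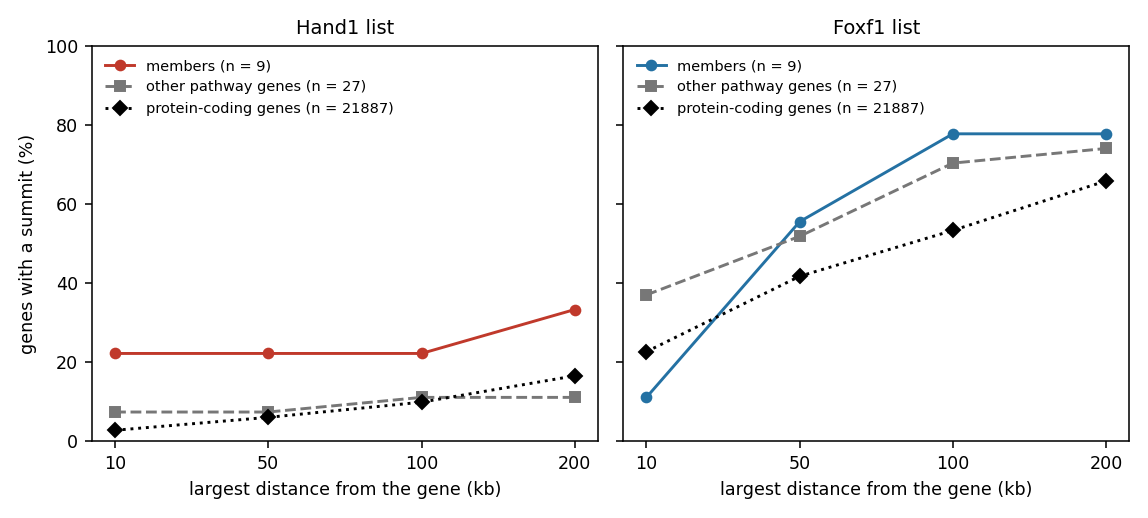
Share of genes with a summit (vertical axis, percent) as the distance from the gene grows (horizontal axis, kb, evenly spaced steps), for the 9 members, the 27 other pathway genes and all 21887 protein-coding genes. In the Foxf1 list the members stand at 11.1% at 10 kb, below the 22.7% of all protein-coding genes, and at 77.8% at 100 kb, above their 53.3%.

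List length and threshold set these counts, for the members and for all genes. With the Foxf1 list cut to its 1134 peaks of highest fold, the length of the Hand1 list, 3 of the 9 members kept a site (Foxh1, Gsc and Mixl1), beside 19.8% of protein-coding genes. Cut to that length by q-value, the list also left 3 members, beside 19.2%. Foxh1, Gsc and Mixl1 were the 3 left with a Foxf1 site when the −log10 q-value had to reach 20, beside 26.9% of protein-coding genes. For Hand1 this left 1 member, Tdgf1, beside 3.80%, through the stronger site, whose nearest protein-coding gene is Lrrc2.

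The rest of the pathway was described with 27 further genes, grouped by role. Of these, 3 had a Hand1 summit within 100 kb (11.1%, beside 9.90% of protein-coding genes) and 19 had a Foxf1 summit (70.4%, beside 53.3%). All 3 genes with a Hand1 site, Cfc1, Tgif1 and Eomes, had a Foxf1 site too, as did 77.2% of all protein-coding genes with a Hand1 summit. Within 10 kb there were 2 genes with a Hand1 site (7.41%, beside 2.80% of protein-coding genes) and 10 with a Foxf1 site (37.0%, beside 22.7%).

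**Figure D4:**
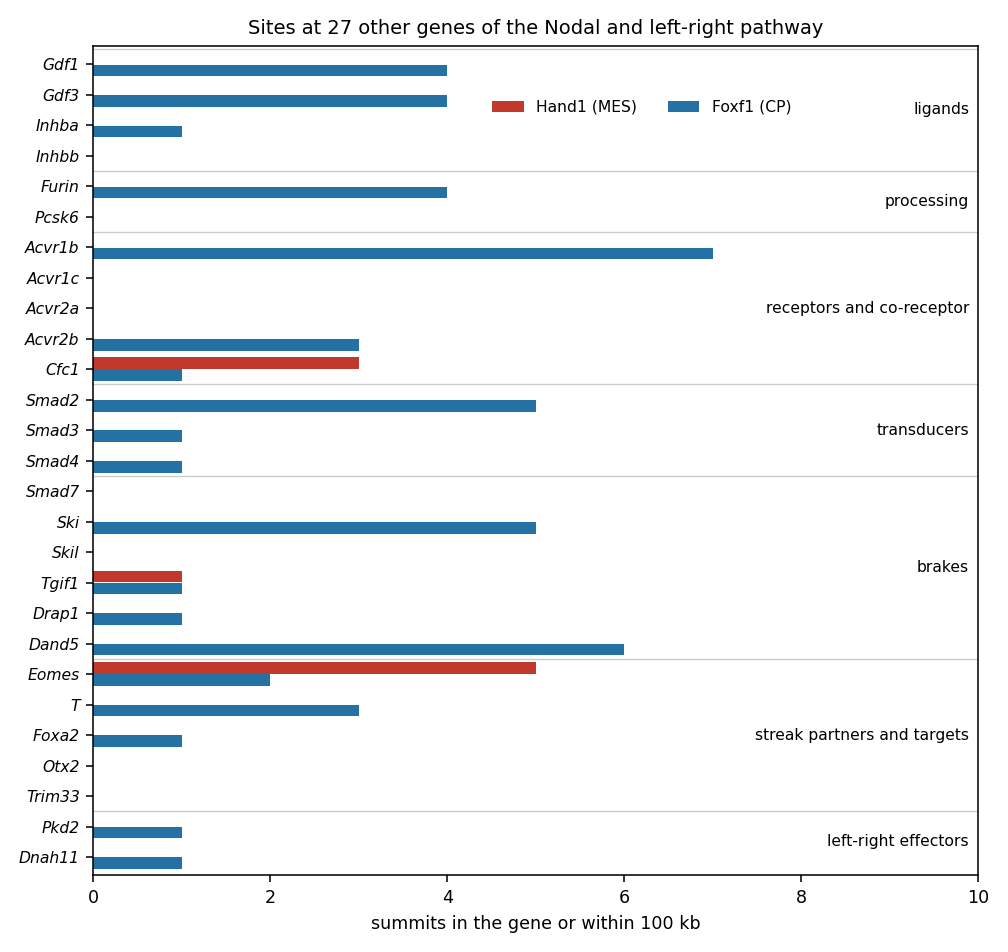
Number of summits in the gene or within 100 kb (horizontal axis) for the 27 other pathway genes (rows, grouped by role); red bars are Hand1 at MES and blue bars Foxf1 at CP. Hand1 bars appear at Cfc1, Tgif1 and Eomes, and the longest Foxf1 bar is the 7 sites at Acvr1b.

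Among ligands, 3 of 4 genes had a Foxf1 site and none a Hand1 site. Over all protein-coding genes, 53.3% had a Foxf1 and 9.90% a Hand1 summit within 100 kb, so a gene without a Hand1 site is the usual case. Gdf1, whose product pairs with Nodal, had 4 Foxf1 sites, the nearest 0.654 kb from the gene. Gdf3 had 4, the nearest at 23.5 kb, and Inhbb none. Inhba, which encodes the subunit of Activin A, had 1 Foxf1 site, chr13:16011612-16012556 (fold 6.03), inside the gene. It covered 239 of the 250 bases before a listed start of Inhba, and its summit lay 523 bp after that start. These bases, chr13:16011601-16011850 on the plus strand, are shown because, of the 26 genes among all 36 that have a promoter entry, no other had a peak over one.
Inhba promoter: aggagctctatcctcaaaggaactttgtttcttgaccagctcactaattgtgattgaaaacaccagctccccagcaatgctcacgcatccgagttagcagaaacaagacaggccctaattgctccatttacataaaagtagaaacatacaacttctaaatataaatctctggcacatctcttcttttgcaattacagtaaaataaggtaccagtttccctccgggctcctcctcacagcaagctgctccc
None of the 5 motifs matched in it, so no base is in capitals. The summit itself lies outside this window.

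The co-receptor gene Cfc1, the relative of Tdgf1, also had Hand1 sites. Its 3 Hand1 sites lay 2.16 kb, 12.8 kb and 16.4 kb from the gene, all towards lower coordinates, with folds of 7.31, 6.56 and 7.42. The single Foxf1 site near Cfc1 (fold 6.25) was 72.6 kb away. Both EGF-CFC genes thus had a Hand1 summit within 10 kb and no Foxf1 summit at that distance. Acvr1b, a type I receptor gene, had 7 Foxf1 sites and Acvr2b, a type II receptor gene, 3, with 1 site inside each gene. The sites outside Acvr1b were nearer to Grasp, Acvrl1 or Atg101, and those outside Acvr2b to Xylb or Acaa1a. Neither receptor gene had a Hand1 site. Acvr1c and Acvr2a had no site. Convertases that cut the Nodal precursor were split, with 4 Foxf1 sites near Furin (folds of 5.51 to 14.2) and none near Pcsk6.

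The 3 transducer genes had Foxf1 sites alone, and none within 10 kb, where 22.7% of protein-coding genes had one. Within 100 kb, 53.3% of protein-coding genes had a Foxf1 summit and 9.90% a Hand1 summit. Smad2 had 5, the nearest at 63.1 kb, Smad3 had 1 at 33.8 kb and Smad4 1 at 11.5 kb. Of the 6 genes that restrain the pathway, 4 had a Foxf1 site. Dand5, which encodes a Nodal antagonist of the left-right organizer, had 6, and 4 of these lay in the gene or within 10 kb (folds of 5.79 to 13.4). Ski, a corepressor gene, had 5 with 1 inside the gene, Drap1 1 and Tgif1 1, and Skil and Smad7 had none. The Hand1 site counted for Tgif1 (fold 13.1) was 95.7 kb away, near the limit.

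The laterality genes Pkd2 and Dnah11, both needed for cilia to sense or drive flow, had 1 Foxf1 site each and no Hand1 site. At least 1 Foxf1 summit was found at 53.3% of protein-coding genes, and a Hand1 summit at 9.90%. Eomes, a T-box partner of the pathway in the streak, had 5 Hand1 summits in 2 regions, 4 of them in the same region, and 2 Foxf1 summits. T had 3 Foxf1 summits in 2 regions and Foxa2 1, without Hand1, and Otx2 and Trim33 had none.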

How the data were processed

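The deposited peak lists of 2 of the 5 samples were analysed. Per the submitters' processing notes, Trim Galore 0.6.6, Bowtie2 2.3.4.3, SAMtools 1.9, deepTools 3.5.0 and MACS2 2.2.7.1 were used with build mm10, the UCSC name of GRCm38. The control, the cut-offs and whether replicates were pooled are not given in the sources used here. Hand1 peaks reached down to a −log10 q-value of 5.01 and Foxf1 peaks to 10.0. The deposited fold enrichment is a linear ratio at the summit, beside the deposited −log10 p-value and −log10 q-value. The deposited score, 10 times the −log10 p-value, was not used.

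Genes came from the RefSeq table of GRCm38.p6, restricted to named chromosomes, where all 36 symbols matched. Promoter entries existed for 5 of the 9 members. Fragments at a summit (k) and control level (λ) were solved from fold = (k + 1)/(λ + 1) and the Poisson probability of more than k at mean λ. A whole k, within 0.05 of a step, was found for all 1134 and 5703 peaks, and k covers counting only. Solving and gene assignment were tested on simulated data. Python 3.11.15 with pandas 2.3.3 was used. The planned rule named all 9 members with their sites, given singly or as ranges, and the other pathway genes with a site. Those without one are named too, and 2 genes of the planned list are not reported here. The members and lists were chosen with earlier results of these data known. Alternative distances, assignments, thresholds and list lengths were tried.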

Additional observations from a re-analysis of the deposited data

How the results depend on the processing

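Of 61 alternatives over 7 counts, 37 stayed within 1.5 times the count reported; of the other 24, 23 were lower and 1 higher. Members with a Hand1 site numbered 1 instead of 2, on 1 site instead of 3, with the nearest protein-coding gene only and at a −log10 q-value of at least 10 or 20. By nearest gene this was the weaker Tdgf1 site, and by q-value the stronger one, which is nearer to Lrrc2. No Hand1 site near the members met both rules. Within 200 kb there were 5 Hand1 sites. Other pathway genes with a Hand1 site fell to 1 at a −log10 q-value of at least 20 (beside 3.80% of protein-coding genes). Members with a Foxf1 site numbered 1 instead of 7 within 10 kb, 0 by nearest gene, and 3 at a −log10 q-value of at least 20 (beside 26.9% of protein-coding genes) and with lists of equal length by fold (19.8%) or by q-value (19.2%). The 18 Foxf1 sites became 7 within 50 kb, 1 within 10 kb, 0 by nearest gene, 5 at a −log10 q-value of at least 20, and 4 or 5 with lists of equal length by fold or q-value. Other pathway genes with a Foxf1 site numbered 10 instead of 19 within 10 kb (beside 22.7% of protein-coding genes) and 12 by nearest gene (19.2%). They numbered 9 at a −log10 q-value of at least 20 (26.9%). With lists of equal length they numbered 7 by fold (19.8%) or 6 by q-value (19.2%). Each of these alternatives but the 200 kb distance only removes peaks or assignments. Equal list length left the Hand1 list as it was, and a −log10 q-value of at least 10 the Foxf1 list, so neither says anything there. No paired analysis was possible because each factor has a single list, and no replicate could be left out. The weakest Hand1 summit held 13 fragments and the weakest Foxf1 summit 18, so a gene without a site may hold a weaker one.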

Other observations

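The Hand1 region beside Eomes (chr9:118486302-118489333), singled out after its values were seen, was 3.03 kb wide and ranked 6 by width among the 991 regions of the Hand1 list, whose median width was 468 bp. Of the 10 widest regions, 5 were nearest to histone genes (H3c15, H2ac10, H2bc23, H4c9 and H4c8). At least 4 summits, as in the Eomes region, were deposited for 12 regions. The 4 summits beside Eomes had folds of 5.12 to 7.65, below the list's median of 7.92.

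The Foxf1 site of highest fold near any of the 36 genes lay 45.2 kb from T (Brachyury), the T-box gene of the streak, with its summit inside another protein-coding gene, T2. It lies in the region chr17:8388356-8390195, had a fold of 25.6 and ranked 19 of 5703, and the promoter of the lncRNA gene Gm16702 overlaps that region. It was also chosen after its value was seen.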
